A study of Mus musculus with 36 samples.

Results

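Small nucleolar RNA genes (snoRNA genes) were examined in 36 poly(A)-selected RNA libraries of mouse embryonic stem cells. The members were all rows of the deposited count table whose gene symbol begins with Snord or Snora and a digit, which gave 142 of 54842 rows. Of these, 100 were Snord genes of the C/D class and 42 were Snora genes of the H/ACA class. The 60 rows with at least 50 counts summed over the 36 libraries, 41 of the C/D and 19 of the H/ACA class, are described here. Just inside that threshold lay Snord23 with 55 counts and Snora43 with 64, and just outside it lay Snord90 with 27 and Snord66 with 21. A further 74 rows had no count in any library and 8 had 1 to 49 counts.

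The cells were either wild-type (WT) or had been transfected with LiTEC, a tool that uses light to target endogenous condensates. The study asked whether LiTEC alters transcription, with and without light and over time. All cultures, WT included, had received doxycycline at 2 ug/ml for 2 days and grew without serum in 2i medium (MEK and GSK3β inhibitors) with LIF, which favours naive pluripotency. Cells were exposed to blue light for 30 min or kept without blue light (called dark here), and RNA was taken 0, 1 or 4 h later, so that 12 groups of 3 libraries resulted. Replicate 1 of each group was in batch 1 and replicates 2 and 3 were in batch 2. The labels do not say whether the replicates were separate cultures or whether the LiTEC cells were 1 clone. Each p-value therefore reflects the variation among these libraries only, and that variation may be technical. Library totals ran from 11132970 to 21842256 counts. The 9 naive pluripotency markers summed to between 3003 and 4488 CPM (counts scaled to a library total of 1000000) in every library, and the 7 markers of fibroblasts and feeders to between 2.07 and 9.58 CPM.

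SnoRNAs are short non-coding RNAs that guide chemical marks onto ribosomal RNA in the nucleolus. C/D snoRNAs, named after their C and D boxes, bind fibrillarin (Fbl), Nop56, Nop58 and Snu13 and direct 2′-O-methylation, whereas H/ACA snoRNAs bind dyskerin (Dkc1), Nop10, Nhp2 and Gar1 and direct pseudouridylation. In mammals most snoRNAs are cut out of introns of host genes, many of which encode ribosomal proteins or are non-coding snoRNA host genes. Mature snoRNAs carry no poly(A) tail, so poly(A) selection retains few of them. The count table cannot tell reads of a mature snoRNA from reads of a tailed form or of an unspliced host intron. In these bulk libraries, fewer cells of a type and less RNA per cell cannot be told apart either.

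Sequences are shown for members that changed with light and for the 4 most abundant of each class. They are the GENCODE M21 transcripts (GRCm38), written 5′ to 3′ on the gene's own strand as DNA letters. Capitals mark the C box TGATGA where it lies in the first 20 bases and the D box CTGA where it lies in the last 20 in C/D members, and the ACA in the last 6 bases in H/ACA members. The first set holds members that lay in hosts of the ribosomal protein class and that fell in WT cells directly after light.
Snord43: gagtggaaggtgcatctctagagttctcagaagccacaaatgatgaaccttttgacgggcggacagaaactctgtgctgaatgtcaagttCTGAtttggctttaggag
Snord83b: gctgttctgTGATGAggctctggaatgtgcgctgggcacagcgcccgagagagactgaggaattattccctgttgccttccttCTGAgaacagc
Snord4a: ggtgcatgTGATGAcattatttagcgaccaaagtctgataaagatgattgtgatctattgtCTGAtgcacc
Snord73a: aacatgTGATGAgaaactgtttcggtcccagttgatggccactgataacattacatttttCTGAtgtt
Snord43 (chr15:80082847-80082954, minus strand) and Snord83b (chr15:80078498-80078591, minus strand) both lay in introns of Rpl3, which encodes a protein of the large ribosomal subunit. Snord4a (chr11:78181686-78181756, minus strand) lay in an intron of Rpl23a, another large subunit gene. Snord73a (chr3:86138791-86138858, minus strand) lay in an intron of Rps3a1 and Snora62 in an intron of Rpsa, which encode proteins of the small subunit.

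The second set holds the members that fell and lay in other hosts or in no annotated host.
Snord49a: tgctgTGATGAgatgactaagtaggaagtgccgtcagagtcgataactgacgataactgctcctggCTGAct
Snord49b: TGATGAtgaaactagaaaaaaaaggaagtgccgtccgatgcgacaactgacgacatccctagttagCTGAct
Snord65: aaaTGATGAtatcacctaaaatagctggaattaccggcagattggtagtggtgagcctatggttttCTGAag
Snord87: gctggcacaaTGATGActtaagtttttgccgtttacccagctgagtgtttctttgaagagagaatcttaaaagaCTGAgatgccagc
Snora31: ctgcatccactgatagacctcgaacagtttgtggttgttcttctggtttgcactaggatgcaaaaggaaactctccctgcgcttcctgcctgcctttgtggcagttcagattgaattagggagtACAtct
Snord104: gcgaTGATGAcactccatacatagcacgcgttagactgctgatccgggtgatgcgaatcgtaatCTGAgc
Snora17: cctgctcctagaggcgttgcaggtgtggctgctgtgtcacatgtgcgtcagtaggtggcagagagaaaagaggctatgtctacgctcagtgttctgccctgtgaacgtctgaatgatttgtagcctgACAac
Snord49a (chr11:62603450-62603521), Snord49b (chr11:62603079-62603150) and Snord65 (chr11:62604515-62604586), all on the plus strand, lay in introns of the non-coding gene 2410006H16Rik. Snord87 (chr1:9942463-9942549, minus strand) lay in an intron of the non-coding host gene Snhg6. Snora31 (chr14:75847905-75848034, plus strand) lay in an intron of Tpt1, which encodes the translationally controlled tumour protein. Snord104 (chr11:106500993-106501062, plus strand) and Snora17 (chr2:26639190-26639321, minus strand) lay in no annotated gene on their strand.

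The third set holds abundant members that passed no test of light.
Snord17: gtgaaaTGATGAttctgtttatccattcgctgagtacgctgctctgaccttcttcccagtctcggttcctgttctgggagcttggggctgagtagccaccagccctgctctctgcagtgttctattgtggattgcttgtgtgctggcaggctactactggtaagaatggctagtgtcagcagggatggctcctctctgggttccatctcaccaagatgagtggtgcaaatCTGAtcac
Snora73b: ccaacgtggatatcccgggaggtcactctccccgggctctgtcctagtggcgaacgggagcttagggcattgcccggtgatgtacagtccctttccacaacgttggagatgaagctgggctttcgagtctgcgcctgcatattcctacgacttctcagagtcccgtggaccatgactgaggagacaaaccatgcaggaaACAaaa
Snora57: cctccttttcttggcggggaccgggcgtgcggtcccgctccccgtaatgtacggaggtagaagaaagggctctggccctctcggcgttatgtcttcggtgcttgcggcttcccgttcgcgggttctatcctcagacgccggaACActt
Snora78: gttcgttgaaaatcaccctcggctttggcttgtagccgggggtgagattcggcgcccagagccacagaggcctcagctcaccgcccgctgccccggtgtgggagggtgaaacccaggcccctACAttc
Snord17 (chr2:144265979-144266216, minus strand) lay in an intron of Snx5, a sorting nexin gene. Snora73b (chr4:132352322-132352526, minus strand), a U17 RNA that acts in the processing of 18S ribosomal RNA, lay in an intron of the non-coding host gene Snhg3, which is itself within Rcc1. Snora78 (chr17:24719676-24719803, minus strand) lay in an intron of the non-coding host gene Snhg9. Snora57 (chr19:8888538-8888685, minus strand) lay in no annotated gene on its strand.

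The boxes followed the classes. TGATGA was in the first 20 bases of 25 of the 41 described C/D members and of 0 of the 19 H/ACA members, against 0.365% of the first 20 bases of 32851 RefSeq promoter windows. CTGA was in the last 20 bases of 40 of 41 C/D and 3 of 19 H/ACA members, against 8.54% of promoter windows of that length. ACA was in the last 6 bases of 18 of 19 H/ACA and 3 of 41 C/D members, against 6.83% of windows. On the opposite strand the counts were 0, 4 and 2 of 41 C/D members and 0, 2 and 1 of 19 H/ACA members for the 3 motifs in that order. TGATGA and CTGA share the letters TGA, but the windows lie at opposite ends of the RNA. The C/D members were 64 to 238 bases long with a median of 81, and the H/ACA members 128 to 205 with a median of 137.

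Alignment of all 991 pairs of described members of the same class found 1 pair at 80% identity or more. Snora73a and Snora73b were identical at 198 of 205 aligned positions (96.6%), so their counts could be split between them and are uncertain. Snord49a and Snord49b were identical at 53 of 75 positions (70.7%).

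Whether a snoRNA gene held counts followed its place relative to exons of other genes. All 57 members that lay wholly inside exons of another gene on the same strand had 0 counts in every library. Of 12 members partly inside such exons, 8 held at least 50 counts, 3 held 1 to 49 and 1 held 0. Of the 72 outside such exons, 17 were copies of Snord116, a repeated C/D snoRNA, and these held 0 counts in 14 rows and at most 3 in the others. Among the other 55, 52 held at least 50 counts, 2 held 1 to 49 and 1 held 0. The 3 members that lay wholly inside an exon on the opposite strand only, Snora73b in Gm17300 and Snord4a and Snord42a in Tlcd1, all held at least 50 counts. The strand setting of the authors' counting, and its treatment of reads shared by 2 genes, were not stated.

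**Figure D1:**
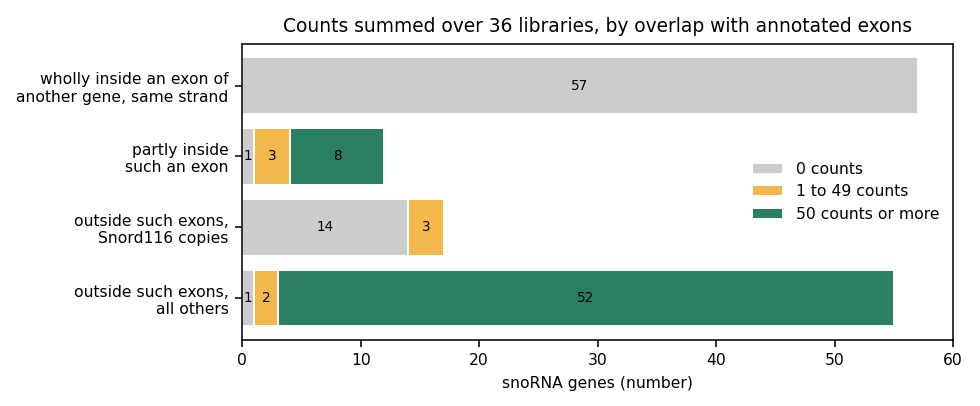
Number of snoRNA genes (x axis) by overlap with annotated exons of other genes on the same strand (y axis), coloured by counts summed over 36 libraries. The 57 genes wholly inside such exons are all at 0, whereas 52 of the 55 outside them that are no Snord116 copies hold at least 50 counts.

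The 60 described members had 43 distinct hosts. A ribosomal protein gene was the host of 16 members, another protein-coding gene of 28 and a non-coding gene of 10, and 6 had no annotated host. There were 19 members that shared a host with another member and so are not independent of it: 3 each in 2410006H16Rik, Rpl13a and Rpl23a, and 2 each in Kansl2, Nop58, Rpl3, Snhg3 and Wdr43.

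SnoRNA genes took few reads. The 60 members held 108240 counts over the 36 libraries, 0.0179% of all counts, and Snord17 and Snora73b together held 33.3% of these. Per kilobase of annotated length, Snora73b was highest at 158 ± 45.9 CPM per kilobase (SD over 36 libraries). Snord49a (126 ± 39.1), Snord17 (117 ± 41.1), Snord104 (79.9 ± 21.7) and Snora17 (68.9 ± 17.0 CPM per kilobase) came next. Snord43 (65.8 ± 18.5), Snord49b (57.7 ± 17.4), Snora78 (48.7 ± 12.4) and Snora57 (46.2 ± 23.1 CPM per kilobase) followed. Each of these members differed from its neighbour in the order by less than the larger of their SDs. Both classes were among the 5 highest.

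**Figure D2:**
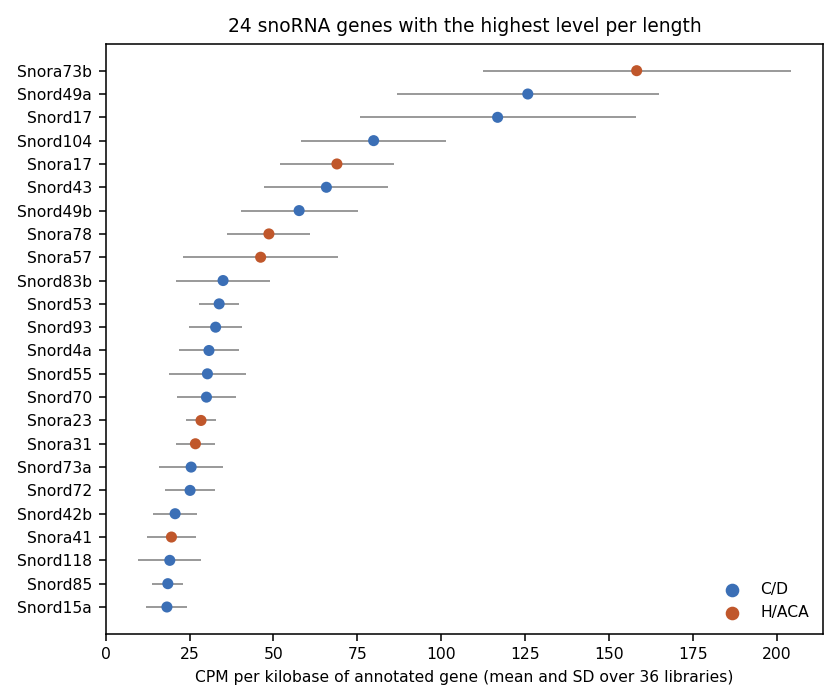
Level per kilobase of annotated length (x axis, CPM per kilobase, mean and SD over 36 libraries) of the 24 snoRNA genes highest on this scale (y axis), coloured by class. Snora73b at 158 and Snord49a at 126 CPM per kilobase lead, and the SD bars of neighbours overlap.

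Tests were made with edgeR's quasi-likelihood F test over all 18193 genes that passed a filter on low counts, and a gene was called where its Benjamini-Hochberg adjusted p over all tested genes was below 0.05. Of the 60 members, 54 passed the filter; Snord61, Snora34, Snora5c, Snord35a, Snord23 and Snora43, with 55 to 177 counts in all, did not, and none of these 6 was called in WT at 0 h in a fit without the filter. The median biological coefficient of variation was 19.7% for the 54 members and 9.99% for all tested genes, at median levels of 1.43 and 9.43 CPM. CPM values below are on TMM-scaled library sizes.

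Directly after light, most tested snoRNA genes had lower levels in WT cells, but not all. Light against dark in WT cells at 0 h called 12 of the 54 members, all lower in light, where 2.86% of all tested genes were called, 1.66% higher and 1.2% lower. The median log2 fold change of the members was -0.47, with 42 of 54 below 0, against -0.01 over all tested genes. An unadjusted p below 0.05 (edgeR) was found for 19 members, of which 18 were lower in light. The summed level of the 60 members was 115 ± 15.3 CPM in light and 175 ± 24.4 CPM in the dark (SD, n = 3 each), with ranges of 99.8 to 130 and 149 to 197 CPM that did not overlap. The share of counts on Gm26917, a non-coding locus with ribosomal RNA sequence, was 10.4 ± 1.86% and 9.99 ± 0.627% in the same groups. The 9 naive pluripotency markers also moved. They summed to 3003, 3747 and 3874 CPM in light and to 3337, 4404 and 4266 CPM in the dark, lower in light for each replicate number. All 9 had a log2 fold change below 0, with a median of -0.20, and 6 had an unadjusted p below 0.05. edgeR called 2 of them lower, Sox2 (-0.31) and Tdgf1 (-0.31 on the log2 scale), and DESeq2 called 4. The part of this in the snoRNA result was not tested.

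Snord43, in Rpl3, had the smallest adjusted p of the members. Its 3 dark WT libraries at 0 h held 7.23, 5.97 and 7.74 CPM, and the 3 light libraries 1.80, 2.49 and 2.16 CPM. The groups did not overlap, and the light mean was 30.8% of the dark mean. The log2 fold change was -1.70 ± 0.18 (SE, adjusted p = 1.83e-07, edgeR). At 1 h the light libraries held 9.02, 8.35 and 7.31 CPM and the dark ones 8.66, 9.47 and 9.81 CPM, and at 4 h they held 7.69, 6.96 and 8.55 against 7.59, 7.92 and 11.6 CPM. Light and dark overlapped at both later times.

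The 3 members in 2410006H16Rik fell together. Snord49a held 9.34, 7.36 and 10.9 CPM in the dark WT libraries at 0 h and 3.33, 3.12 and 3.02 CPM after light (log2 fold change -1.53 ± 0.22, adjusted p = 4.68e-05, edgeR). Snord49b held 3.89, 5.32 and 4.99 CPM in the dark and 1.00, 1.93 and 1.15 CPM after light (-1.80 ± 0.27, adjusted p = 5.35e-05, edgeR). Neither pair of groups overlapped. Snord65 was sparser, with 1.56, 0.42 and 1.37 CPM in the dark and 0.21, 0.19 and 0.22 CPM after light (-2.37 ± 0.54, adjusted p = 0.00892, edgeR), and its lowest dark library lay near the light ones. At 1 h the light means of Snord49a, Snord49b and Snord65 in WT were 90.8%, 115% and 172% of the dark means.

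Members in ribosomal protein genes made up 5 of the 12. Snord73a held 2.16, 1.02 and 2.25 CPM in the dark and 0.90, 0.44 and 0.29 CPM after light (-1.67 ± 0.34, adjusted p = 0.00295, edgeR). Snora62 held 3.02, 2.13 and 2.43 against 1.32, 0.69 and 1.01 CPM (-1.30 ± 0.27, adjusted p = 0.00414, edgeR). Light and dark libraries did not overlap in either. Snord4a held 2.48, 2.96 and 2.12 CPM in the dark and 0.63, 1.25 and 1.15 CPM after light (-1.35 ± 0.29, adjusted p = 0.005, edgeR). Snord83b, the second member in Rpl3, held 3.24, 2.36 and 3.18 against 1.06, 0.81 and 1.73 CPM (-1.30 ± 0.34, adjusted p = 0.0241, edgeR). Neither of these overlapped either.

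The remaining 4 were in other places. Snord87, in Snhg6, held 2.16, 0.79 and 1.62 CPM in the dark and 0.74, 0.31 and 0.50 CPM after light (-1.50 ± 0.39, adjusted p = 0.0261, edgeR), with the lowest dark library close to the highest light one. Snora31, in Tpt1, held 4.53, 3.75 and 4.43 against 2.01, 3.18 and 2.52 CPM (-0.73 ± 0.20, adjusted p = 0.0303, edgeR). The remaining pair had no annotated host. Snord104 held 7.50, 4.86 and 7.30 CPM in the dark and 3.91, 3.68 and 3.16 CPM after light (-0.85 ± 0.20, adjusted p = 0.0111, edgeR). Snora17 held 9.44, 6.67 and 8.55 against 3.81, 5.18 and 5.25 CPM (-0.79 ± 0.17, adjusted p = 0.00437, edgeR). Every light library of these 4 lay below every dark one. The called members were chosen by this same comparison, so the separation of their light and dark libraries is no further support. The share of all tested genes with such separation was not computed.

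**Figure D3:**
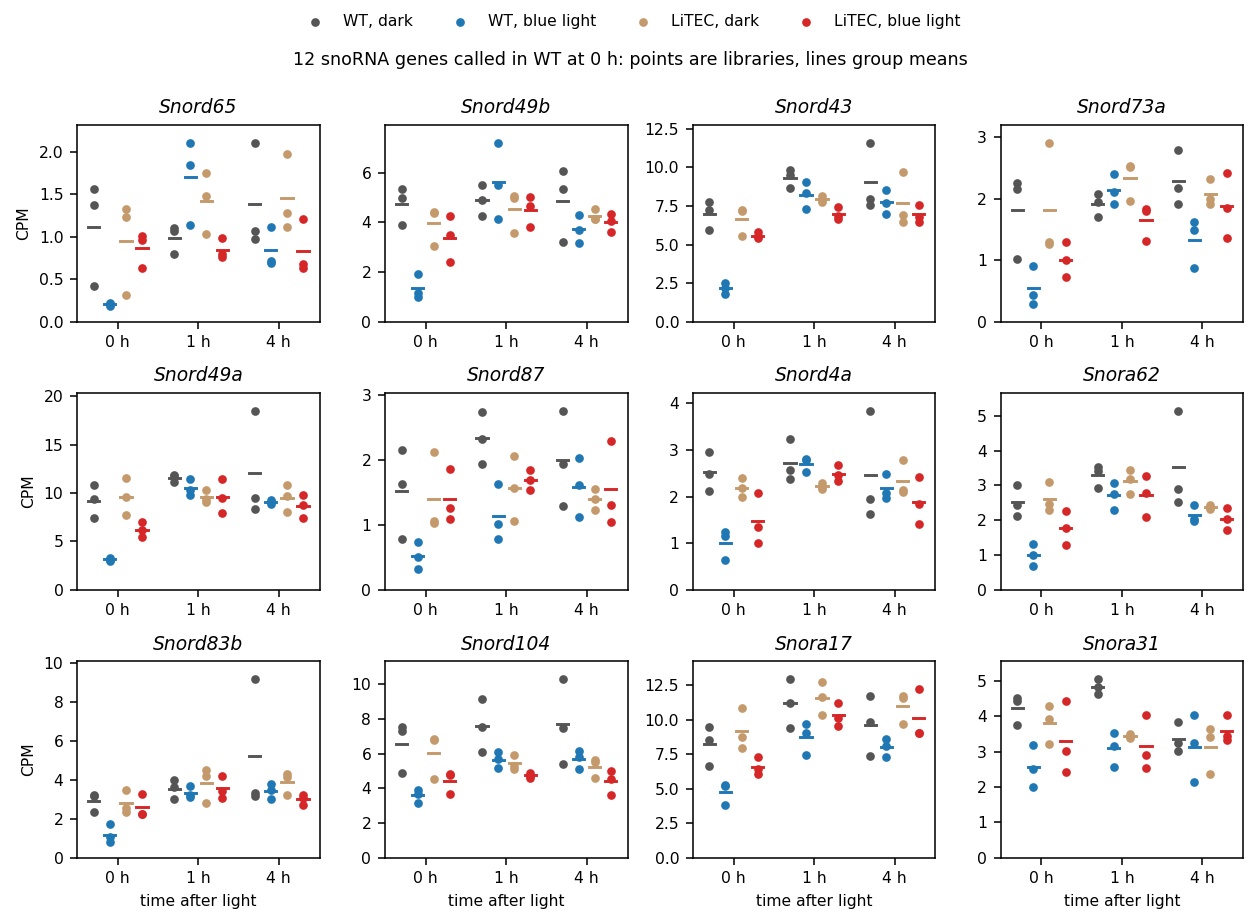
CPM (y axis) of the 12 snoRNA genes called in WT cells at 0 h, by time after light (x axis), with 1 point per library, 3 per group, and a line at each group mean. In WT at 0 h the light libraries lie below the dark ones, and at 1 h the 2 groups overlap for most genes.

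The calls of Snord43, Snord49a, Snord49b and Snord73a held without any of the 6 libraries in turn. In a fit of only the groups compared, Snord73a was lost (adjusted p = 0.0821, edgeR) and Snord43, Snord49a and Snord49b were kept. Leaving out light replicate 1 left 5 calls, and leaving out dark replicate 1 or dark replicate 3 left 7 each. Without light replicate 1 the adjusted p (edgeR) was 0.109 for Snora17, 0.0954 for Snord4a, 0.0524 for Snord104, 0.0733 for Snord65, 0.171 for Snora31, 0.137 for Snord83b and 0.0729 for Snord87. Without light replicate 2 it was 0.052 for Snora62, 0.156 for Snord83b and 0.138 for Snord87, and without light replicate 3 it was 0.0907 for Snora31 and 0.0553 for Snord87. All of these members kept their direction. Without dark replicate 1 the values were 0.0655 for Snord104, 0.211 for Snora31, 0.0645 for Snord65, 0.0973 for Snord83b and 0.166 for Snord87. Without dark replicate 3 the same 5 members stood at 0.0855, 0.0835, 0.0597, 0.0966 and 0.117. Within batch 2 alone (2 libraries a group) the 4 calls were Snord43, Snord49a, Snord49b and Snord73a, and in batch 1 (1 library a group, no test) 42 of 54 members were lower in light.

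Members grouped by host differed in count. Of 15 tested members in ribosomal protein genes, 5 fell and the median log2 fold change was -0.86, with 14 below 0. Of 24 in other protein-coding genes, 1 fell (Snora31) and the median was -0.15. Of 10 in non-coding genes, 4 fell with a median of -0.57, and of 5 without an annotated host 2 fell with a median of -0.79. By class, 9 of 38 C/D and 3 of 16 H/ACA members fell, with medians of -0.47 and -0.57. The difference between these groups was not tested.

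Of the 12 most abundant members, 5 did not pass the test. Snora73b held 31.9, 26.9 and 36 CPM in dark WT cells at 0 h and 23.0, 16.7 and 22.9 CPM after light (-0.60 ± 0.22, adjusted p = 0.171, edgeR). Snord17 held 23.2, 22.6 and 27.3 against 17.5, 13.8 and 24.2 CPM (-0.40 ± 0.27, adjusted p = 0.573, edgeR). Neither passed the test, and the libraries of Snord17 overlapped. Snora78 held 6.31, 6.25 and 8.86 against 5.07, 4.18 and 5.32 CPM (-0.55 ± 0.17, adjusted p = 0.0715, edgeR), and with the replicate number as a block in the fit it was called (adjusted p = 0.0329). Snora57 had a log2 fold change of -0.64 ± 0.34 (adjusted p = 0.425, edgeR). Snora23, in the importin gene Ipo7, held 4.78 ± 1.14 CPM in the dark and 5.48 ± 0.601 CPM after light (SD, n = 3 each), a log2 fold change of 0.20 ± 0.20 (adjusted p = 0.746, edgeR). Members without a host outside the naming rule, singled out after their values were seen, were the U8 RNA gene Snord118 and the U13 RNA gene Snord13, whose RNAs act in ribosomal RNA processing. Their log2 fold changes were -0.28 ± 0.50 and -0.84 ± 0.48, and neither was called.

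The host genes were set beside their members in 45 pairs with 37 hosts. The hosts had a median log2 fold change of -0.07 in WT at 0 h and the members in these pairs a median of -0.47, and the member was below its host in 30 of 45 pairs. Across the 45 pairs Pearson's r was 0.34 and Spearman's rho 0.59, as a description of values that share libraries and, in part, hosts. Of the 37 hosts 3 were called, all lower: Snhg6 (-0.98 ± 0.13), Snhg3 (-0.61 ± 0.11) and Rpl3 (-0.35 ± 0.07). Snhg6 held 37.6, 27.4 and 39.1 CPM in the dark and 15.2, 17.2 and 20.7 CPM after light. Rpl3 held 459.9, 449.9 and 502.1 against 378.0, 326.1 and 403.3 CPM. In both hosts every light library was below every dark one.

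For 3 called members the host was called too, namely Snord43, Snord83b and Snord87. The other 7 called members with a host had hosts that were not called. 2410006H16Rik, host of 3 members, held 53.4, 51.0 and 54 CPM in the dark and 47.6, 51.8 and 46.3 CPM after light (-0.12 ± 0.08, adjusted p = 0.584, edgeR), and the groups overlapped. The values were -0.08 ± 0.09 for Rps3a1, -0.07 ± 0.08 for Rpl23a, -0.09 ± 0.06 for Rpsa and -0.10 ± 0.07 for Tpt1. Snhg9, host of Snora78, stood at -1.37 ± 0.42 (adjusted p = 0.0711, edgeR) from a mean of 1.01 CPM. The difference between a member and its host was not tested.

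**Figure D4:**
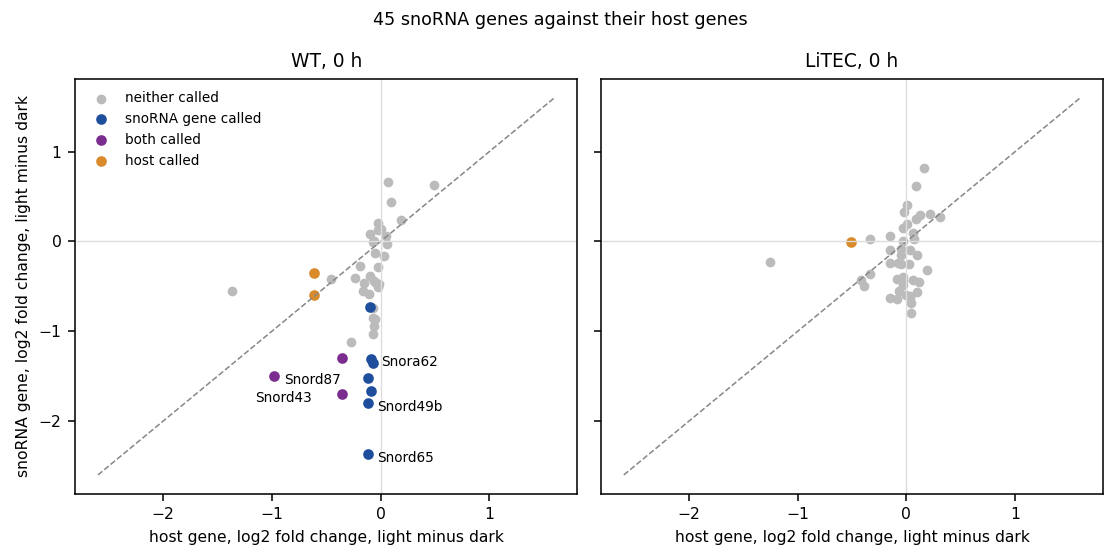
Log2 fold change, light minus dark at 0 h, of 45 snoRNA genes (y axis) against that of their host genes (x axis) in WT (left) and LiTEC cells (right), with the dashed line at equality and colours for adjusted p below 0.05. In WT the 10 called snoRNA genes lie between -0.73 and -2.37, and 7 of them have a host that was not called.

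Other small RNA genes were tested in the same fit in WT at 0 h, and the difference between these sets and the snoRNA genes was not tested. Of 131 tested rows with a microRNA symbol, some of which are host transcripts, 6 fell and 0 rose, with a median of -0.11. They were Mir17hg (-0.75 ± 0.12), the host of a microRNA cluster, and Mir291b (-0.69 ± 0.14), Mir292 (-1.02 ± 0.26), Mir293 (-0.74 ± 0.18), Mir7-1 (-0.95 ± 0.26) and Mir5119 (-4.32 ± 0.90, from a mean of 0.343 CPM). Whether any of these 6 rows share a transcript was not examined, so they may not be independent. Of 6 small Cajal body RNA genes (Scarna) 0 were called by edgeR, where 1 had an unadjusted p below 0.05, or by DESeq2, and their median was 0.14. The Rnu set was made by symbol alone and may hold snoRNA genes under other names. Of its 6 rows 1 fell, Rnu73b (-1.33 ± 0.27, adjusted p = 0.00321, edgeR). Rnu73b may itself be a snoRNA gene, so it cannot serve as a contrast with the snoRNA genes. These genes are named because they are all the called ones of their sets, after their values were seen.

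In LiTEC cells directly after light, no member was called, where 0.934% of all tested genes were called, 0.401% higher and 0.533% lower. DESeq2 called 0 as well, with 2 members left without an adjusted p. The median log2 fold change was -0.24, with 39 of 54 below 0, and 7 members had an unadjusted p below 0.05 in edgeR, all lower in light. The median was -0.11 without light replicate 2 and -0.41 without light replicate 1, and by batch it was 0.05 in batch 1 and -0.27 in batch 2. The summed level was 160 ± 40.4 CPM in light and 178 ± 27.5 CPM in the dark (SD, n = 3 each), and the groups overlapped. Light replicate 1 carried the highest sum, 206 CPM, together with 16.3% of its counts on Gm26917, against 10.1% at the lowest of the 3, and the part of this in the result was not tested.

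The 12 members that fell in WT were all below 0 in LiTEC cells too, with a median of -0.35 and a range from -0.80 to -0.01, and none was called. Of the other 42 tested members 27 were below 0 as well, with a median of -0.15. Snord49a held 9.56, 7.75 and 11.5 CPM in the dark and 6.99, 6.15 and 5.42 CPM after light (-0.63 ± 0.21, adjusted p = 0.18, edgeR). Its light libraries were below its dark ones. Snord43 held 7.17, 5.58 and 7.27 against 5.52, 5.42 and 5.80 CPM, and those groups overlapped. Snord73a held 2.91, 1.30 and 1.26 against 1.30, 0.72 and 1.01 CPM (-0.80 ± 0.32, adjusted p = 0.311, edgeR), and Snora17 10.8, 7.94 and 8.72 against 7.33, 6.42 and 6.05 CPM (-0.47 ± 0.16, adjusted p = 0.214, edgeR). The groups overlapped for Snord73a and not for Snora17. Snord87 stood at -0.01, with a light mean of 100.1% of its dark mean. Its host Snhg6 was called lower in LiTEC cells (-0.51 ± 0.13, adjusted p = 0.0425, edgeR).

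The test of the difference, the light effect in LiTEC minus that in WT at 0 h, called 1 member, Snord43, where 0.022% of all tested genes were called, 0.0165% higher and 0.0055% lower. The difference was 1.45 ± 0.25 on the log2 scale (adjusted p = 0.0134, edgeR), from a fall to 30.8% of the dark mean in WT and to 83.7% in LiTEC cells. It was 1.40 in batch 1 and 1.20 in batch 2 on the log2(CPM + 0.5) scale. The call was lost without LiTEC dark replicate 2 (adjusted p = 0.0895, edgeR), WT light replicate 1 (0.179) or WT dark replicate 3 (0.0565). For the other 11 members the difference was not called, so a smaller fall in LiTEC cells was not shown for them. Snord49b differed by 1.55 ± 0.36 (adjusted p = 0.349, edgeR) and Snord49a by 0.90 ± 0.31 (adjusted p = 0.68, edgeR).

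At 1 and 4 h after light no member was called in any comparison of light with dark. In WT at 1 h, where 0.286% of all tested genes were called (0.176% higher and 0.11% lower), the members' median was -0.02 and 5 had an unadjusted p below 0.05 (edgeR), all lower. Among them were Snora31 (-0.65 ± 0.19) and Snord87 (-1.05 ± 0.33), whose 3 light libraries were below all 3 dark ones at 1 h too. The light libraries of Snord104 (6.106, 5.154 and 5.690 CPM) also lay below its dark ones (9.145, 6.114 and 7.536 CPM) at 1 h, by a narrow margin. In WT at 4 h, where 0% of genes were called, the median was -0.32 and 10 members had an unadjusted p below 0.05. That median rested on 1 library: dark WT replicate 3 at 4 h held a snoRNA sum of 360 CPM and 26.1% of its counts on Gm26917, the highest of all libraries in both, and without it the median was 0.01. In LiTEC cells the medians were -0.17 at 1 h, where 0.115% of genes were called (0.0824% higher and 0.033% lower), and -0.09 at 4 h, where 0.011% were (0.0055% in each direction). There 1 and 3 members had an unadjusted p below 0.05. DESeq2 called 0 members in each of these 4 comparisons, with 18 members in WT at 1 h and 30 in WT at 4 h left without an adjusted p. The difference between LiTEC and WT called 0 members at 1 h and at 4 h with edgeR and with DESeq2, where 0% of all tested genes were called by edgeR, and 2 members had an unadjusted p below 0.05 at each time.

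**Figure D5:**
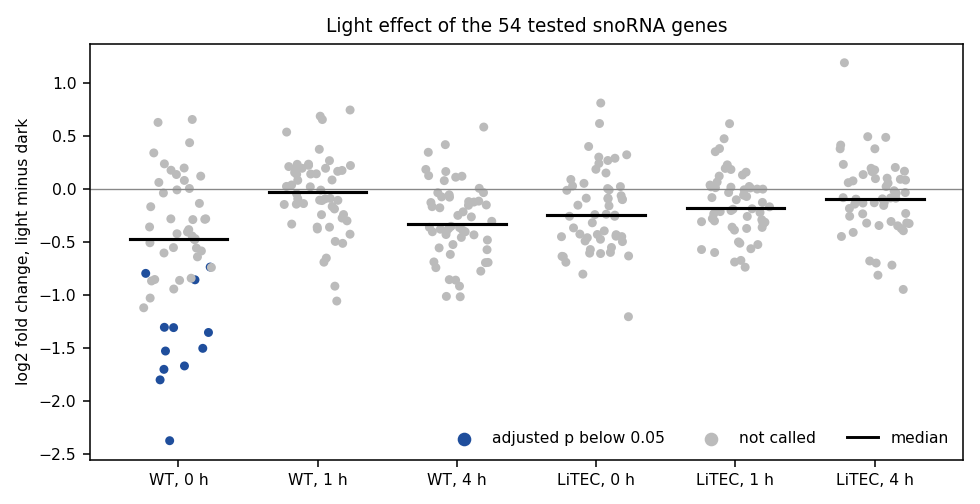
Log2 fold change, light minus dark, of the 54 tested snoRNA genes (y axis) in WT and LiTEC cells at 0, 1 and 4 h (x axis), 1 point per gene, with the black line at the median and called genes in blue. The median is -0.47 in WT at 0 h, where all 12 called genes are, and -0.02 in WT at 1 h.

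Genes for the proteins that bind and mature snoRNAs were not called by edgeR in any of the 9 comparisons of light. Over all tested genes, 2.86% were called in WT at 0 h, 0.934% in LiTEC at 0 h and 0 to 0.286% in the other light comparisons. In lists of 4 to 19 genes, 0 calls lies near these shares. The 4 C/D core proteins, the 4 H/ACA core proteins, 13 assembly factors, 13 genes of end processing and intron release, 15 genes of nonsense-mediated decay and 19 genes of ribosomal RNA transcription and processing gave 0 calls each. In WT at 0 h an unadjusted p below 0.05 was found for 0, 1, 0, 2, 3 and 4 of them, in that order of lists. DESeq2 called 1 gene of nonsense-mediated decay in WT at 0 h and 1 in LiTEC at 1 h, and 0 in the other lists and light comparisons. The medians of the lists lay between -0.09 and 0.03 in WT at 0 h. Examples are Fbl, the methyltransferase of C/D particles, at -0.01 ± 0.05, and Dkc1, the pseudouridine synthase of H/ACA particles, at 0.00 ± 0.05. By level, the leading genes of the other lists were Nolc1, Ruvbl2 and Naf1 for assembly, Xrn2, Skiv2l2 and Dis3 for end processing, Etf1 and Smg1 for nonsense-mediated decay and Npm1, Ncl and Ddx21 for ribosomal RNA.

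Between the genotypes in the dark, few members were called. The median log2 fold change of the 54 members was -0.12, with 37 below 0. An unadjusted p below 0.05 (edgeR) was found for 8, all lower in LiTEC. Without dark WT replicate 3 at 4 h the median was -0.03. Members had lower levels and a wider spread than all tested genes, so few calls do not show that few members differed. LiTEC minus WT over the dark libraries called 4 of 54 members, all lower in LiTEC, where 47.6% of all tested genes were called, 23.9% higher and 23.7% lower, so the members' share was below the background. Snora78 stood at -0.50 ± 0.10 (adjusted p = 5.51e-05), Snora57 at -0.52 ± 0.19 (0.0216), Snord104 at -0.37 ± 0.11 (0.00506) and Snord7 at -0.93 ± 0.32 (0.018), all from edgeR. Snora78 held 5.51 ± 0.815, 5.59 ± 0.32 and 5.57 ± 0.921 CPM at 0, 1 and 4 h in dark LiTEC cells and 7.14 ± 1.49, 7.54 ± 0.26 and 9.06 ± 1.64 CPM in dark WT cells (SD, n = 3 each). The LiTEC means were the lower ones at each time. Snord7, in the non-coding gene AA465934, had a total of 266 counts in all libraries. The call of Snora57 was lost without dark WT replicate 3 at 4 h (adjusted p = 0.189, edgeR) or dark LiTEC replicate 2 at 0 h (0.0528), and that of Snord7 without dark WT replicate 2 at 0 h (0.0535). Leaving out dark WT replicate 2 at 4 h gave 8 calls. In batch 2 alone Snord104 was lost (adjusted p = 0.138, edgeR), and with only the groups compared Snora57 was (0.0538). Among the alternative filters, scalings and designs, Snord7 had a test in 8 and each other called member in 10. Where Snord7 had no test, its call was neither kept nor lost. With a replicate block of its own in each genotype, Snord7 (0.187) and Snora57 (0.545) were lost. With the replicate block Snora73b (adjusted p = 0.0431, edgeR) and Snord87 (0.047) were called as well.

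Many genes of the snoRNA particles were lower in LiTEC cells in the dark, beside the 23.7% of all genes called lower and 23.9% called higher. All 4 C/D core proteins were lower: Fbl by -0.22 ± 0.03, Snu13 by -0.19 ± 0.04, Nop58 by -0.19 ± 0.03 and Nop56 by -0.09 ± 0.03 (SE). Of the 4 H/ACA core proteins 3 were lower, Gar1 (-0.34 ± 0.05), Nhp2 (-0.24 ± 0.05) and Dkc1 (-0.24 ± 0.03). Of 13 assembly factors 11 were lower and 0 higher, led by the helicase gene Ruvbl1 (-0.67 ± 0.04), and of 19 genes of ribosomal RNA transcription and processing 14 were lower and 0 higher, among them Nop2 (-0.49 ± 0.04) and the polymerase I subunit Polr1b (-0.38 ± 0.04). Nonsense-mediated decay gave 10 lower and 3 higher of 15, with Upf3a at 0.50 ± 0.07, and end processing 5 lower and 2 higher of 13. Cell type markers differed in the same comparison, and their part in these results was not tested. Of the 9 naive pluripotency markers 7 were called lower and 2 higher, with a median of -0.20, and their sums ran from 3290 to 4210 CPM in dark LiTEC and from 3276 to 4488 CPM in dark WT libraries. Of the 7 fibroblast and feeder markers 4 were tested and 3 called lower (median -2.30), from sums of 2.07 to 4.76 CPM in LiTEC and 4.35 to 9.58 CPM in WT, with Dcn and Lum at no more than 0.228 and 0.0741 CPM in any library. Of 4 tested primitive endoderm markers 3 were called higher (5.41 to 8.68 CPM summed in LiTEC, 3.18 to 4.20 CPM in WT), and of 4 mesendoderm markers 3 were called lower (5.06 to 8.58 against 7.70 to 20.9 CPM). Of 3 tested neuroectoderm markers 1 was lower and 1 higher, and of 3 trophectoderm markers 1 was lower.

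Further called genes of these lists were as follows. Lower in LiTEC were, for assembly, Shq1, Phax, Znhit3, Znhit6, Nolc1, Ruvbl2, Rpap3, Coil, Tgs1 and Naf1, between -0.36 and -0.11 on the log2 scale. For ribosomal RNA they were Polr1a, Polr1c, Polr1d, Ubtf, Ncl, Npm1, Wdr43, Ddx21, Imp3, Imp4, Mphosph10 and Rrp9, between -0.30 and -0.08. For nonsense-mediated decay, among others, Upf1, Upf2, Upf3b, Smg5, Smg9, Etf1, Magoh, Rbm8a and Casc3 were lower, between -0.46 and -0.08, and Smg1 and Smg6 higher by 0.07 and 0.10. For end processing C1d, Toe1, Exosc10, Dis3 and Parn were lower, between -0.25 and -0.11, and Xrn1 and Papd5 higher by 0.20 and 0.11.

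Over time in the dark, WT cells called 3 of 54 members by an F test over 0, 1 and 4 h, where 10.2% of all tested genes were called. These were Snora20, in the chaperonin gene Tcp1, Snord98, in Ccar1, and Snord17. The members' median log2 change was 0.19 from 0 to 1 h, with 11 of 54 below 0, and 0.37 from 0 to 4 h. Over all tested genes these medians were 0.00 and 0.01. An unadjusted p below 0.05 (edgeR) was found for 12 members. The 4 h median includes the library with 26.1% of counts on Gm26917 and is not given here without it. Snord98 held 0.59, 0.51 and 0.75 CPM at 0 h, 1.28, 1.38 and 0.91 at 1 h and 1.20, 1.46 and 2.10 at 4 h, and its libraries at 0 h lay below all the later ones. Snord17 held 27.4, 28.0 and 76.1 CPM at 4 h, and Snora20 1.37, 1.24 and 3.19 CPM, with the highest value in replicate 3 each time. Without that library, the one with 26.1% of counts on Gm26917, 0 members were called, and the adjusted p (edgeR) was 0.891 for Snord17, 0.493 for Snora20 and 0.161 for Snord98. Leaving out 1 of the other 8 libraries gave 0 to 7 calls: 0 without replicate 1 at 0 h, 1 without replicate 2 at 0 h or replicate 1 at 1 h, 5 without replicate 2 at 4 h and 7 without replicate 1 at 4 h. Snora20 was lost without replicate 1 at 0 h (adjusted p = 0.061, edgeR). Snord17 was lost without replicates 1 (0.0694) or 2 (0.067) at 0 h, or 1 (0.0567) or 3 (0.0593) at 1 h. Snord98 was lost without replicates 1 (0.104), 2 (0.178) or 3 (0.0699) at 0 h, 1 (0.0603) or 2 (0.0544) at 1 h, or 2 (0.0578) at 4 h. With the replicate block Snora57 was called too (adjusted p = 0.0358, edgeR).

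In dark LiTEC cells 1 member was called over time, Snord93 in the non-coding gene 2700038G22Rik, where 5.63% of all tested genes were called. It held 2.45, 2.54 and 1.92 CPM at 0 h, 3.28, 3.34 and 3.14 at 1 h and 1.92, 1.74 and 1.70 at 4 h (adjusted p = 0.0211, edgeR). The libraries at 1 h lay above all others. The call was lost without any 1 of the 6 libraries at 1 h and 4 h, with adjusted p from 0.0509 to 0.0823. In dark LiTEC cells the members' median log2 change was 0.21 from 0 to 1 h, with 17 of 54 below 0, and 0.09 from 0 to 4 h. Over all tested genes these medians were 0.00 and -0.01. From the lists, dark WT cells called Nufip1, Ruvbl1, Nolc1 and Phax of 13 assembly factors and Xrn2 and Tent4a of 13 end processing genes. Npm1, Wdr43 and Imp4 of 19 ribosomal RNA genes were called too. The core protein and nonsense-mediated decay lists gave 0 calls, where 10.2% of all tested genes were called. The changes of the called genes from 0 to 4 h lay between -0.33 and -0.18 on the log2 scale, except Tent4a at 0.19. Without dark WT replicate 3 at 4 h, 890 genes were called over all genes, against 1857 with it. Whether these list genes kept their calls without it is not given here. Dark LiTEC cells called Nop58 of 4 C/D core genes, Tent4a of 13, Upf2 and Smg1 of 15 and Npm1 of 19 in their lists. The changes of these 5 genes from 0 to 4 h were -0.10, 0.13, 0.08, 0.22 and -0.17. The H/ACA core and assembly lists gave 0 calls in dark LiTEC cells.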

How the data were processed

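The libraries were made from TRIzol-extracted RNA with a stranded mRNA kit, per the labels' protocols. The authors deposited raw counts per gene for 36 libraries, made with featureCounts after FastQC on mm10 (GRCm38), per the submitters' processing notes. The aligner, versions and strand setting were not stated. Gene symbols came from the deposited name map, and positions, hosts and sequences from GENCODE M21, which holds 141 of the 142 members. Counts were normalised by TMM and tested with edgeR 4.0.16 (R 4.3.3) over 18193 genes that passed filterByExpr by group (minimum count 10). The quasi-likelihood fit held all 36 libraries, with 12 group means and batch. The 12 comparisons were light against dark in each genotype and time (6), the differences between genotypes (3), LiTEC against WT in the dark (1) and time in the dark (2, F tests). DESeq2 1.42.0 and other filters, scalings and designs were alternatives. Sequences were aligned with Biopython 1.88, and the fit was tested on simulated data.

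The members, gene lists and tests were chosen with earlier results of these data known. Named members were all those called in any comparison and the 12 with the highest mean CPM, with their hosts. From the lists all called genes were named, or the 3 most abundant where none was called. A gene of these lists and a member's sequence are not reported here. Same-numbered libraries deviated together in 18 of 18 pairs of libraries, light and dark of 1 genotype and time (correlations of 0.269 to 0.584), so the replicate numbers, which also separate the batches in the titles, were taken to pair the samples.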

Additional observations from a re-analysis of the deposited data

Results flagged for a closer look

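The light effect on Snord43 at 0 h differed between the genotypes by a test of that difference. The value was 1.445 on the log2 scale, LiTEC minus WT (SE 0.25, adjusted p = 0.0134, edgeR). In WT all 3 light libraries lay below all 3 dark ones, and in LiTEC cells the groups overlapped. No other member passed this test at 0, 1 or 4 h.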

How the results depend on the processing

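Light in WT at 0 h called 12 members, and 12 also with DESeq2's size factors, no filter, a minimum count of 30, without the ribosomal RNA loci or with DESeq2. DESeq2 left 11 members without an adjusted p in this comparison. The number of calls was 10 without the batch term, 4 in batch 2 alone, 4 with only the groups compared and 5 to 12 when 1 library was left out. Those with only the groups compared were Snord43, Snord49a, Snord49b and Snora62. The difference between genotypes at 0 h fell from 1 call to 0 in batch 2 alone, to 0 with only the groups compared, and to 0 to 1 with 1 library left out. LiTEC against WT in the dark moved from 4 calls to 5 in batch 2 alone, 2 with only the groups compared and 3 to 8 with 1 library left out. Time in dark WT moved from 3 calls to 1 without the batch term, 1 in batch 2 alone, 1 at a minimum count of 30, 0 with only the groups compared and 0 to 7 with 1 library left out. Time in dark LiTEC moved from 1 call to 0 in batch 2 alone and 0 to 1 with 1 library left out. The cause was not tested. No fold change of a member in a light or genotype comparison that called it reversed its direction. Medians over the members did with 1 library left out: without dark WT replicate 3 at 4 h that of WT at 4 h went from -0.32 to 0.01 and that of the difference at 4 h from 0.23 to -0.06. At 1 h the medians of WT (-0.02) and of the difference (-0.03) lay near 0 and ran from -0.08 to 0.01 and from -0.13 to 0.02. Sparse counts, 1439 to 4977 on all members per library, limit what could be detected.

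With the replicate number as a block, to use the pairing, WT at 0 h gave 13 calls, LiTEC against WT in the dark 6 and time in dark WT 4. It changed no other member's call. A block with its own levels in each genotype, chosen after seeing the data, gave 14, 2 and 7. Over all genes the block moved the calls from 520 to 870, 52 to 111 and 0 to 37 in WT at 0, 1 and 4 h, and from 170 to 290, 21 to 60 and 2 to 10 in LiTEC cells. It moved them from 4 to 7 for the difference at 0 h, from 1857 to 3033 for time in dark WT and from 1024 to 1819 in dark LiTEC.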
